A study of Arabidopsis thaliana with 12 samples.

Results

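Indole-3-pyruvic acid (IPyA) and indole-3-acetic acid (IAA) were compared in Arabidopsis thaliana plants that had first received the inhibitor L-AOPP, on 6 of the 12 arrays of the study. The 3 arrays titled L-AOPP+IPyA were set against the 3 titled L-AOPP+IAA, array by array with the same replicate number, so the members were chosen from their titles and not from a measured value. Several early auxin genes were lower with IPyA than with IAA. GH3.3 stood 14.3-fold lower, GH3.1 8.70-fold lower and HAT2 4.99-fold lower, at levels near those of plants with the inhibitor alone. IAA30 and IAA29 were also lower, with IPyA signals too dim for a firm size. Against Mock, the inhibitor alone showed no fall in these genes (log2 differences of 0.19 to 0.69, none passing in the paired fit). A smaller set, led among annotated genes by AT4G25250 and holding UPB1, UGT72E2, UGT85A2 and EXPB1, was higher with IPyA than with IAA. Of those named, none passed in a fit without the pairing, and only UPB1 passed whichever single array was left out.

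In plants, IPyA is made from tryptophan by the aminotransferases of the TAA1 family and is then turned into IAA, the main natural auxin, by the flavin monooxygenases of the YUC family. IAA binds the TIR1/AFB receptors together with many of the Aux/IAA repressors, which are then degraded. The ARF transcription factors bound by those repressors are released to act on early auxin genes. Among these early genes are Aux/IAA genes themselves, GH3 genes, whose enzymes join IAA to amino acids, and genes of transcription factors. L-AOPP, an aminooxy relative of phenylalanine, is used to block auxin synthesis.

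All plants were of the Col-0 ecotype and were grown for 7 days, shaken in liquid medium of reduced Murashige and Skoog strength at 21 °C in continuous light, and whole plants were harvested. Each group holds 3 arrays. L-AOPP+IPyA and L-AOPP+IAA plants both received 50 µM L-AOPP for 3 h, with the second compound added 1 h after the inhibitor, which leaves 2 h with it. L-AOPP plants received the inhibitor alone for 3 h, and Mock plants received the solvent DMSO. IAA was given at 1 µM. The dose of IPyA is stated differently by different labels, as 100 µM in the sample descriptions and the design text and as 0.1 µM in the treatment protocol, a 1000-fold difference. Either way the doses of the compounds differ, so all values here compare 2 treatments as given and not 2 compounds at a matched dose. The labels do not say that the arrays of a group come from separate cultures, so a p-value here speaks of the spread among these arrays alone, and that spread may be technical.

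Signals are linear probe set intensities. Array medians ran from 169 to 185, and the rank correlation between any pair of arrays between 0.969 and 0.988. The 3'/5' ratio of the GAPDH control averaged 1.36 ± 0.209 with IPyA and 1.28 ± 0.123 with IAA (SD, n = 3 each), and that of actin 12.9 ± 1.36 with IPyA and 11.6 ± 2.57 with IAA. That of ubiquitin was 2.31 ± 0.348 with IPyA and 2.26 ± 0.198 with IAA. These differences are smaller than the spread. Both organs were present by their markers. LHCB4.1, a light-harvesting protein gene of the shoot, had a signal of 21032 ± 3548 with IPyA and 21118 ± 3388 with IAA, and PYK10, a root beta-glucosidase gene, had 20218 ± 1717 with IPyA and 20126 ± 1853 with IAA. LHCB4.1 was the only shoot marker tested. PYK10 was 1 of 3 root markers tested, and the others, EXPA7 and EXPA18, differed by -0.20 and 0.09 (log2, IPyA minus IAA). The reference genes PEX4 and GAPC2 differed by 0.02 and -0.01 on the log2 scale.

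The first question was how many transcripts differed between the treatments. A probe set was called when its adjusted p in the paired limma fit was under 0.05. Of 15922 tested probe sets, 309 were called (1.94%), 64 of them higher (0.402%) and 245 lower (1.54%) with IPyA than with IAA. The median log2 difference was 0.72 among those called higher and -0.89 among those called lower, against 0.01 over all tested probe sets. At least 2-fold differences made up 16 of the higher and 100 of the lower calls. At least 4-fold lower were 19, and 0 were at least 4-fold higher. At an unadjusted p under 0.05 there were 1659 probe sets (10.4%). In whole plants, fewer cells of a type and less RNA per cell cannot be told apart, which holds for each difference given here.

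Every one of the 309 moved the same way in 3 of 3 pairs, which a paired fit favours in what it calls, so this is no separate support. The signals of the groups did not overlap for 253 of the 309, against 1149 of all tested probe sets (7.22%). The 309 were picked by their difference on these same arrays, so this is no separate support either. Only 128 of the lower and 38 of the higher calls have exactly 1 gene in the annotation used, while 114 and 24 are not listed there. The largest difference of all fell on such an unlisted probe set, which averaged 139 ± 100 with IPyA and 4831 ± 199 with IAA (40.6-fold, adjusted p = 7.06e-07). Without the pairing by replicate number the fit called 60 probe sets (0.377%), 6 higher and 54 lower. The paired count fell to 118 without replicate 2 and 118 without replicate 3, and leaving out single arrays gave 174, 193 and 180 without L-AOPP+IPyA replicate 1, 2 and 3 and 163, 174 and 188 without L-AOPP+IAA replicate 1, 2 and 3.

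**Figure D1:**
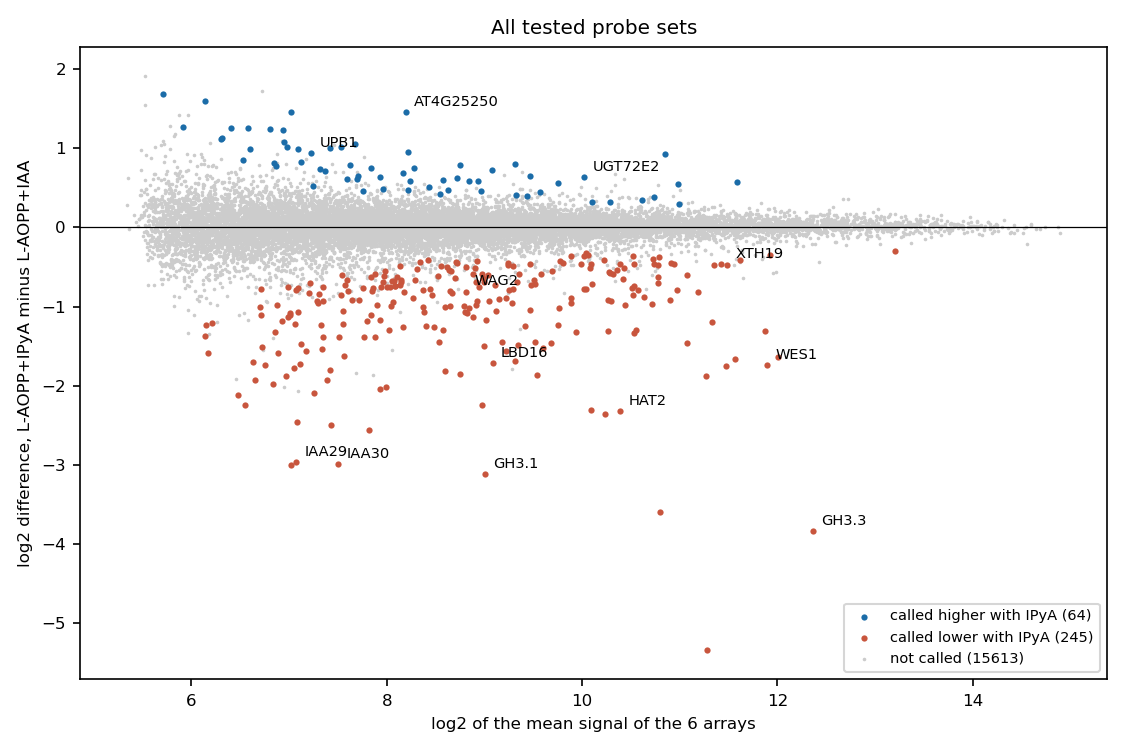
Log2 difference of L-AOPP+IPyA minus L-AOPP+IAA (y axis) against the log2 of the mean signal of the 6 arrays (x axis), 1 point for each of the 15922 tested probe sets. The 245 probe sets called lower with IPyA reach down to -5.34 and include GH3.3, GH3.1, IAA29, IAA30 and HAT2, while the 64 called higher reach up to 1.69.

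Of the enzymes that inactivate auxin, 3 of the 5 tested GH3 genes were lower with IPyA than with IAA and 0 were higher. The median difference was -1.74 on the log2 scale, and 1.54% of all tested probe sets were called lower. GH3.3, which joins IAA to amino acids, had signals of 1415, 519 and 431 on L-AOPP+IPyA replicates 1, 2 and 3, against 10387, 10187 and 8769 on L-AOPP+IAA replicates 1, 2 and 3. L-AOPP alone gave 1261, 708 and 609, and Mock gave 825, 525 and 300.3. The IPyA arrays lay in the range of the arrays with no added auxin for replicates 2 and 3 and above it for replicate 1, and the IAA arrays lay far above all others. GH3.3 averaged 789 ± 544 with IPyA and 9781 ± 882 with IAA (SD, n = 3 each), a log2 difference of -3.84 (95% interval -4.31 to -3.37, adjusted p = 9.94e-07).

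GH3.1, a gene of the same family, had 74.4, 156 and 96.5 with IPyA, against 1135, 904 and 720.3 with IAA. L-AOPP alone gave 75.5, 145 and 63.1. Here the IAA arrays stood apart and the others overlapped. The difference was -3.12 (interval -3.95 to -2.29), 8.70-fold, with an adjusted p of 0.000626. WES1, which is GH3.5 and acts on IAA and on salicylic acid, had 2423, 1803 and 1205 with IPyA, against 6457, 5673 and 5368 with IAA. Its groups did not overlap either, at -1.74 (interval -2.03 to -1.46), 3.34-fold, adjusted p = 1.24e-05. Within both groups WES1 was highest on replicate 1 and lowest on replicate 3.

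The other tested members of the family did not pass. GH3.17 had a mean of 1337 ± 219 with IPyA and 1295 ± 141 with IAA, a difference of 0.04 (interval -0.15 to 0.23, adjusted p = 0.965). GH3.9 had 69.2 ± 12.6 with IPyA and 64.0 ± 13.5 with IAA, a difference of 0.12 (interval -0.40 to 0.64, adjusted p = 0.958). For GH3.17 the interval holds no difference beyond 0.23 in size, while for GH3.9 it is wide. The calls of GH3.3, GH3.1 and WES1 held without any single array of the 6, without any replicate, and without pairing (adjusted p of 0.00211, 0.0479 and 0.0210).

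**Figure D2:**
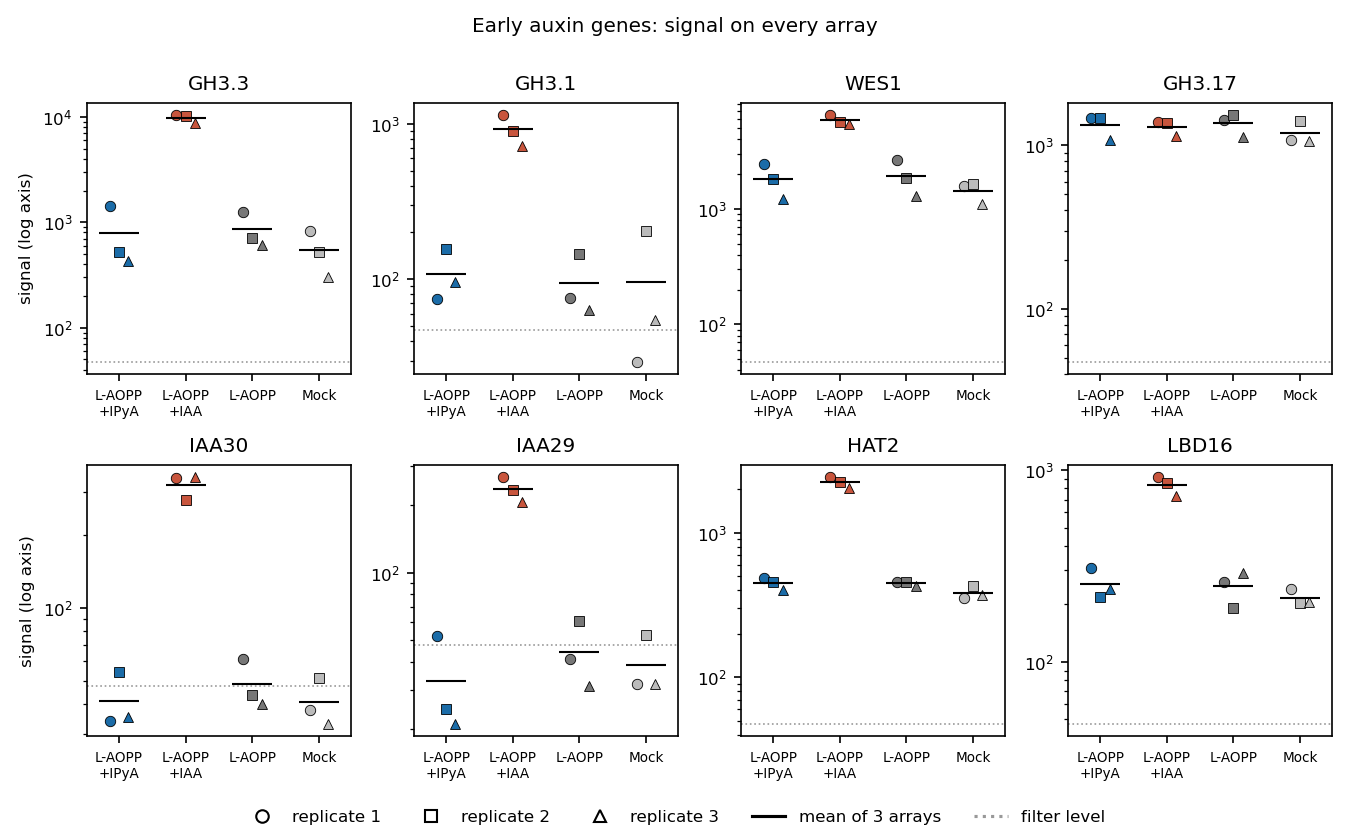
Signal on each array (log axis) of 8 auxin genes, with L-AOPP+IPyA, L-AOPP+IAA, L-AOPP and Mock from left to right; symbols mark replicates 1 to 3, bars the mean of 3 arrays and the dotted line the filter level of 47.4. For 7 of the 8 genes the 3 IAA arrays lie above all other arrays, and for GH3.17 the 4 groups lie together.

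The Aux/IAA genes encode repressors of the auxin response, many but not all of them short-lived. Of the 4 tested, 2 were lower with IPyA, IAA30 and IAA29, and 0 were higher. Both passed the filter on dim probe sets only through their IAA arrays, since the mean signal of the 9 other arrays was 42.5 for IAA30 and 36.4 for IAA29, under the filter level of 47.4, so the count is no support for a direction. IAA30 had 34.2, 54.4 and 35.4 with IPyA, against 343, 278 and 346 with IAA, and L-AOPP alone gave 61.2, 43.5 and 40.0. IAA29 had 52.3, 24.7 and 21.1 with IPyA, against 267, 234 and 207 with IAA, and L-AOPP alone gave 41.1, 60.7 and 31.3. For both genes the IAA arrays were several times brighter than any other array, and the IPyA arrays overlapped those with L-AOPP alone.

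IAA30 differed by -2.99 (interval -3.53 to -2.45, adjusted p = 2.3e-05) and IAA29 by -2.96 (interval -3.64 to -2.29, adjusted p = 0.000203). Both calls held without any single array, any replicate or the pairing. The IPyA means, 41.3 ± 11.3 for IAA30 and 32.7 ± 17.1 for IAA29, also lie under that level, so the size of these differences is uncertain. IAA20 had 134, 99.4 and 172 with IPyA, against 282, 160.4 and 222 with IAA, groups that overlap, and its difference of -0.71 was not called (adjusted p = 0.0808). It passed when L-AOPP+IPyA replicate 3 was left out (-0.91, adjusted p = 0.0442) and when the fit held only the 6 arrays (adjusted p = 0.0488). IAA18 had 476 ± 71.2 with IPyA and 609 ± 43.1 with IAA, a difference of -0.36 (interval -0.57 to -0.15, adjusted p = 0.0978), with groups that do not overlap.

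Another member, IAA34, was too dim over the 12 arrays to be tested. Its signals were 16.2, 38.4 and 34.3 with IPyA, against 291, 214 and 139.6 with IAA, 35.5, 64.8 and 28.6 with L-AOPP alone and 4.60, 40.9 and 32.0 in Mock. The IAA arrays were all far above the filter level, and of the others only L-AOPP replicate 2 was above it. It was called in the fit with no filter (adjusted p = 0.0420), a fit in which it was looked up after its values were seen.

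Of the transcription factor genes that auxin induces, 2 of 3 tested were lower with IPyA (1.54% of all tested probe sets were) and 0 were higher. Their median difference was -1.71. HAT2, a homeodomain-leucine zipper gene, had 488, 455 and 403 with IPyA, against 2426, 2261 and 2029 with IAA, and 455, 458 and 428.5 with L-AOPP alone. The IPyA and L-AOPP arrays lay side by side, and the IAA arrays formed a tight group above them. HAT2 averaged 448 ± 42.9 with IPyA and 2239 ± 200 with IAA. Its difference of -2.32 (interval -2.52 to -2.12, adjusted p = 4e-08) had the lowest p of the named genes. LBD16, which acts in the founder cells of lateral roots, had 309, 218 and 238 with IPyA, against 915, 850 and 727 with IAA, and 259, 192 and 292 with L-AOPP alone. Its groups did not overlap, with a difference of -1.71 (interval -2.01 to -1.42, adjusted p = 1.73e-05). Both calls held without any single array, any replicate or the pairing.

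PUCHI, an AP2-type gene of early lateral root primordia, had 37.9, 49.6 and 47.4 with IPyA, against 50.4, 105 and 109 with IAA. All IPyA arrays lay below all IAA arrays, yet the difference of -0.90 was not called (interval -1.69 to -0.11, adjusted p = 0.374). It was -1.36 without L-AOPP+IAA replicate 1 and -0.57 without L-AOPP+IAA replicate 3. LBD29, which acts with LBD16 in lateral root formation, was below the filter. It had 2.90, 4.70 and 5.60 with IPyA, against 171, 298 and 329 with IAA, 2.2, 3.6 and 23.0 with L-AOPP alone and 4.90, 6.40 and 2.60 in Mock. Its signal was below the filter level on all arrays except those with IAA, and the fit with no filter called it (adjusted p = 0.00136), again looked up after its values were seen. Taking the GH3, Aux/IAA and transcription factor lists together, 7 of 12 tested genes were called lower with IPyA and 0 higher (1.94% of all tested probe sets were called). IAA29, IAA30 and PUCHI passed the filter only through their IAA arrays, which leans the count towards lower with IPyA, and of the other 9 genes 5 were lower. These lists were drawn up with earlier results of the same arrays known, so the counts are descriptions.

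Few genes of auxin synthesis and transport could be read. YUC2, one of the monooxygenase genes that turn IPyA into IAA, had 170.1 ± 17.9 with IPyA and 128 ± 7.04 with IAA, a difference of 0.41 that was not called (interval 0.07 to 0.76, adjusted p = 0.337). WAG2, whose kinase acts on the PIN auxin carriers, had 402, 263 and 324 with IPyA, against 577, 547 and 586 with IAA. L-AOPP alone gave 325, 416 and 309. Its IPyA arrays lay below all IAA arrays, at -0.81 (interval -1.19 to -0.43, adjusted p = 0.0351). Leaving out any of the 6 arrays took the call away (adjusted p 0.0698 to 0.203), as did no pairing (0.266), no filter (0.0590) or no intensity trend (0.110). Its relative PID2 differed by -0.14 (adjusted p = 0.886).

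Beyond the lists, the 15 lowest genes by log2 difference include 8 that the annotation used gives only as a locus number. AT3G42800 had 33.4, 70.2 and 40.8 with IPyA, against 167, 191 and 182 with IAA, and 72.7, 70.9 and 62.9 with L-AOPP alone. AT3G09280 had 44.0, 71.2 and 48.6 with IPyA, against 222, 179 and 188 with IAA. AT5G67430 had 29.7, 64.8 and 50.4 with IPyA, against 148, 150.1 and 151 with IAA. In all 3 genes the groups were well apart, and the differences were -1.97, -1.87 and -1.70 (adjusted p of 0.000335, 0.000584 and 0.0018). The 3 calls held without any single array, any replicate or the pairing. AT3G09280 passed the filter only through its IAA arrays (46.6 on the mean of the 9 others).

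For AT3G51410 the replicate number mattered. It had 286.5, 107 and 169.7 with IPyA, against 1058, 505 and 454 with IAA, and 338, 162 and 181 with L-AOPP alone. Replicate 1 was the highest in all 3 of these groups, and each pair was lower with IPyA. The difference of -1.85 had an adjusted p of 0.000203 in the paired fit and 0.393 without pairing. The other locus-numbered genes were AT1G64405 (-2.11, adjusted p = 0.0246), AT3G55720 (-1.78, adjusted p = 0.0158), AT5G52750 (-1.73, adjusted p = 0.00758) and AT1G65920 (-1.59, adjusted p = 0.0256). None of these 4 was called without pairing, and each depends on single arrays. Without the intensity trend AT1G64405 (0.0719), AT3G55720 (0.0555) and AT1G65920 (0.0736) were not called, nor were AT1G64405 (0.0552) and AT1G65920 (0.0565) without the filter. AT1G64405, which passed the filter only through its IAA arrays and whose IPyA mean was 39.3 ± 25.1, had a difference of -1.38 without L-AOPP+IPyA replicate 2, and its call ended on dropping L-AOPP+IPyA replicate 3 or any L-AOPP+IAA array (adjusted p 0.0547 to 0.154). The call of AT5G52750 ended on dropping L-AOPP+IPyA replicate 1, or L-AOPP+IAA replicate 1 or 2 (0.0502 to 0.0706). The calls of AT3G55720 (0.0580 to 0.112) and AT1G65920 (0.0661 to 0.169) ended on dropping any array apart from L-AOPP+IPyA replicate 2.

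Genes that loosen the cell wall moved in both directions. Of 21 tested, 3 were lower with IPyA and 1 was higher, with a median of -0.07. Over all tested probe sets 1.54% were lower and 0.402% higher, and this list too was drawn up with earlier results known. XTH19 and XTH18 encode xyloglucan endotransglucosylases, which cut and rejoin wall xyloglucan. XTH19 had 2374, 2545 and 2268 with IPyA, against 3749, 3276 and 2961 with IAA, and 2047, 2254 and 1993 with L-AOPP alone. Its groups did not overlap and its difference was -0.47 (interval -0.63 to -0.31, adjusted p = 0.0039). XTH18 had 754, 1145 and 1488 with IPyA, against 1577, 1856 and 2056 with IAA. Replicate 1 was the lowest and replicate 3 the highest in both groups, which do not overlap, and the difference was -0.74 (interval -1.10 to -0.38, adjusted p = 0.0391).

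EXLA1, an expansin-like gene, had 270.1, 583 and 399 with IPyA, against 594, 1004 and 474 with IAA. Its groups overlap while each pair is lower with IPyA, and the difference was -0.72 (adjusted p = 0.0394). EXPB1, a beta-expansin gene, went the other way, with 1157, 1019 and 933 with IPyA, against 671, 719 and 701 with IAA and 776, 960.1 and 731 with L-AOPP alone. Every IPyA array lay above every IAA array, and the difference was 0.57 (interval 0.33 to 0.81, adjusted p = 0.0176). Expansins EXPA4 (-0.41, adjusted p = 0.0737) and EXPA8 (-0.34, adjusted p = 0.0953) were not called. None of the 4 called wall genes passed without pairing. Without the intensity trend XTH18 (0.139), EXLA1 (0.121) and EXPB1 (0.0719) were not called, nor were XTH18 (0.0636) and EXLA1 (0.0630) without the filter. XTH19 kept its call without any single array but not without replicate 2 or 3 (0.0585 and 0.0639). The XTH18 call ended on dropping any of the 6 arrays (0.0617 to 0.224), that of EXLA1 on dropping any array apart from the third L-AOPP+IAA one (0.0706 to 0.223), and that of EXPB1 on dropping L-AOPP+IPyA replicate 1 or 3, or L-AOPP+IAA replicate 1 or 2 (0.0539 to 0.115).

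Of 3 pectin and other wall enzyme genes, ATPMEPCRB, the pectin methylesterase gene PME41, was lower with IPyA. It had 469.6, 606 and 721 with IPyA, against 714, 873 and 852 with IAA, and 429, 516 and 485 with L-AOPP alone. The groups overlap slightly, and the difference of -0.46 (interval -0.66 to -0.25) had an adjusted p of 0.0263. It lost the call on dropping any array apart from L-AOPP+IPyA replicate 3 (0.0788 to 0.167), without pairing (0.847) and without the intensity trend (0.0727). Among 6 touch and wounding genes, PUB23 was lower and 0 were higher, against 1.54% and 0.402% of all tested probe sets. PUB23 encodes a U-box ubiquitin ligase that dampens immune responses. Its signals were 194.5, 1023 and 650.0 with IPyA, against 765, 1747 and 1526 with IAA, and 187, 625 and 681 with L-AOPP alone. Replicate 1 was the lowest in each group, the groups overlap, and the difference of -1.33 (interval -1.97 to -0.68, adjusted p = 0.0389) lost its call on dropping any of the 6 arrays (0.0567 to 0.214). It was not called without the filter (0.0672) or the intensity trend (0.142) either, and without pairing its adjusted p was 1.00. PUB26, a ubiquitin ligase gene of the same kind, came near the threshold at -0.69 (adjusted p = 0.0570).

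Genes higher with IPyA than with IAA were fewer, and none that passed the filter on dim probe sets reached a 4-fold difference. UPB1, a bHLH gene that restrains peroxidase genes in the root tip, had 239.5, 187 and 164 with IPyA, against 123.5, 88.8 and 95.6 with IAA. L-AOPP alone gave 249.9, 260.2 and 179.9, and Mock gave 179, 123 and 149. The IPyA arrays lay with the L-AOPP arrays and the IAA arrays below both. The difference was 0.94 (interval 0.60 to 1.27), 1.91-fold, with an adjusted p of 0.00575. UPB1 was the only one of 4 root hair list genes called (1.94% of all tested probe sets were). The root hair genes EXPA7 and EXPA18 and the cellulase gene GH9C1 differed by -0.20, 0.09 and -0.19.

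UGT72E2 glucosylates monolignols such as coniferyl alcohol. It had 1216, 1157 and 1394 with IPyA, against 906, 605 and 958 with IAA, and 1333, 1382 and 1336 with L-AOPP alone. All IAA arrays were below the rest, at a difference of 0.63 (interval 0.36 to 0.90, adjusted p = 0.0177). It was the 1 called of 6 tested phenylpropanoid genes, of which 0 were lower, while 0.402% of all tested probe sets were higher. UGT85A2, a glycosyltransferase gene of the detoxification list, had 889.8, 960.0 and 748 with IPyA, against 554, 529.6 and 559.5 with IAA, and 670.5, 820.5 and 831 with L-AOPP alone. Its IAA arrays sat tightly together under all others, with a difference of 0.65 (interval 0.41 to 0.90, adjusted p = 0.00789). It was 1 of 18 in its list, with 0 lower and a median of 0.03. The UGT72E2 call ended on dropping L-AOPP+IPyA replicate 2 or 3, or L-AOPP+IAA replicate 2 (0.0832 to 0.116), and without the intensity trend (0.0809). UGT85A2 lost its call on dropping L-AOPP+IPyA replicate 1 or 2, or L-AOPP+IAA replicate 2 (0.0626 to 0.0648). UPB1 kept its call without any single array but not without replicate 1 or 2 (0.0635 and 0.0538), and none of the 3 genes was called without pairing.

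**Figure D3:**
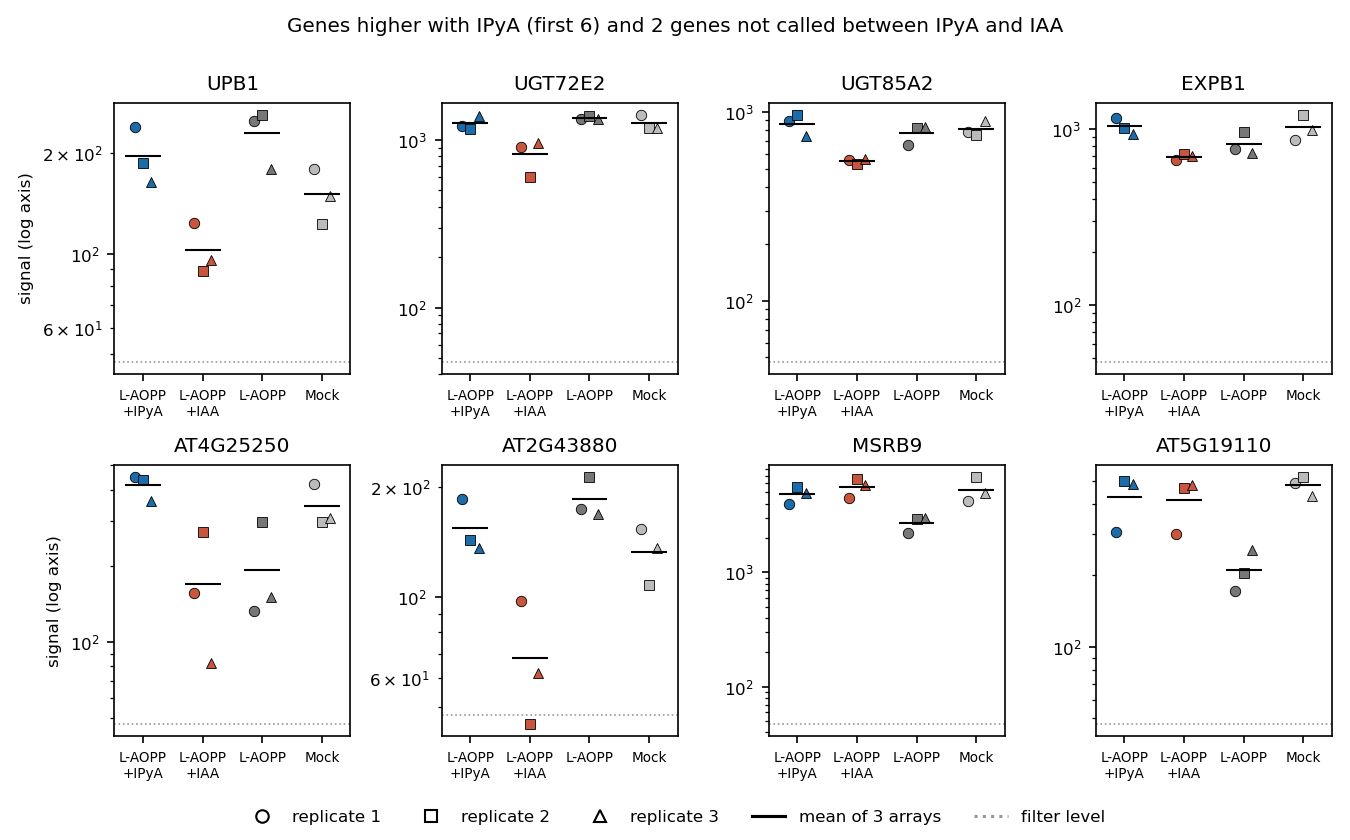
Signal on each array (log axis) of 6 genes higher with IPyA and 2 genes not called between IPyA and IAA, with L-AOPP+IPyA, L-AOPP+IAA, L-AOPP and Mock from left to right; symbols mark replicates 1 to 3, bars the mean of 3 arrays and the dotted line the filter level of 47.4. In the first 6 genes every IPyA array lies above every IAA array, while MSRB9 and AT5G19110 overlap between IPyA and IAA and lie above L-AOPP alone in both.

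The largest difference in this direction fell on an unlisted probe set, which averaged 79.5 ± 15.6 with IPyA and 24.7 ± 4.99 with IAA (1.69, adjusted p = 0.0140), the IAA mean lying under the filter level. Among annotated genes, the largest fell on genes given only by locus number. AT4G25250 had 448, 439 and 363 with IPyA, against 156, 271 and 82.4 with IAA, and 132, 298 and 150.2 with L-AOPP alone. Here the IPyA arrays lay above both other groups, and the difference was 1.45 (interval 0.83 to 2.07), 2.74-fold, adjusted p = 0.0183. AT2G43880 had 186, 143 and 136 with IPyA, against 97.7, 44.9 and 62.1 with IAA, and 174.9, 213 and 168.5 with L-AOPP alone, so that the IAA arrays were the low ones. Its difference was 1.25 (interval 0.79 to 1.70, adjusted p = 0.00675). AT4G01140 had 185, 166 and 163 with IPyA, against 68.3, 93.1 and 60.9 with IAA, with 132, 126 and 96.3 with L-AOPP alone. Its L-AOPP arrays lay between the groups, at a difference of 1.23 (interval 0.87 to 1.59, adjusted p = 0.00125). AT5G03510 had 172, 189 and 141 with IPyA, against 75.4, 109 and 68.3 with IAA. Its groups did not overlap, at 1.01 (interval 0.72 to 1.3, adjusted p = 0.00116), and of the genes called higher that are named here it was the one whose call held without any single array or replicate.

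The rest of the 15 highest by log2 difference were AT3G11370 (1.27), AT3G24210 (1.26), AT3G21680 (1.25), AT3G59850 (1.13), AT3G49930 (1.06), AT5G43040 (1.01), AT5G24100 (0.99), AT2G36970 (0.99), UPB1 (0.94), AT2G22930 (0.85) and AT5G43030 (0.81), with adjusted p-values between 0.00167 and 0.0440. Signals of AT2G36970 overlapped between the groups, and those of the others did not. AT3G11370 averaged 36.2 ± 13.4 with IAA, under the filter level, so its size is uncertain. The difference of AT3G24210 was 0.71 without replicate 2. Calls ended on leaving out single arrays for AT4G25250 (without replicate 1 or 3 of either group, 0.0872 to 0.120), AT3G11370 (replicate 1 or 2 of L-AOPP+IPyA or 1 or 3 of L-AOPP+IAA, 0.0836 to 0.132), AT3G24210 (replicate 2 or 3 of either group, 0.114 to 0.225) and AT3G59850 (any array apart from the third L-AOPP+IAA one, 0.0847 to 0.139). They also ended for AT5G24100 (replicate 2 of L-AOPP+IPyA or 1 or 2 of L-AOPP+IAA, 0.0576 to 0.0581), AT2G36970 (replicate 1 of L-AOPP+IPyA or 3 of L-AOPP+IAA, 0.0501 to 0.0572), AT2G22930 (replicate 1 or 2 of either group, 0.163 to 0.241) and AT5G43030 (replicate 1 or 3 of L-AOPP+IPyA or 2 or 3 of L-AOPP+IAA, 0.0709 to 0.126). Without the filter, AT3G11370 (0.0552), AT3G24210 (0.0867), AT3G59850 (0.0576) and AT2G22930 (0.103) were not called, and without the intensity trend AT4G25250 (0.0842) and AT3G24210 (0.103) were not. With only the 6 arrays in the fit, AT3G24210 (0.0995) and AT2G22930 (0.0967) were not called. AT4G01140, AT3G21680, AT3G49930 and AT5G24100 were also called without pairing, and the other 11 were not.

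Each treatment was also compared with the inhibitor alone, on the same IPyA and IAA arrays as above. The L-AOPP arrays serve in both of these comparisons, so their values are set side by side and not related to each other. The paired fit called 28 probe sets for IPyA against L-AOPP (0.176%), 25 higher (0.157%) and 3 lower (0.0188%). It called 590 for IAA against L-AOPP (3.71%), 406 higher (2.55%) and 184 lower (1.16%). Without pairing the counts were 0 (0.0%) and 63 (0.396%). The limma fit without pairing had 367 of the 15922 tested probe sets at an unadjusted p under 0.05 for IPyA against L-AOPP, a count that is no support for a difference.

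None of the 7 early auxin genes lower with IPyA than with IAA was called for IPyA against L-AOPP, and all 7 were called for IAA against L-AOPP. The 7 were picked by their difference on these same IPyA and IAA arrays, so this tally is a description and no separate support. HAT2 differed by 0.00 (interval -0.20 to 0.20) with IPyA and by 2.32 with IAA. LBD16 differed by 0.05 (interval -0.25 to 0.35) with IPyA and by 1.76 with IAA, and WES1 by -0.09 (interval -0.38 to 0.19) with IPyA and by 1.65 with IAA. These intervals leave room for changes of at most 0.38 in size on the log2 scale. They are wider for GH3.3 (-0.26 with IPyA, interval -0.73 to 0.21), GH3.1 (0.23, interval -0.60 to 1.07), IAA30 (-0.23, interval -0.77 to 0.31) and IAA29 (-0.51, interval -1.18 to 0.17). L-AOPP alone minus Mock was 0.22 for HAT2, 0.18 for LBD16, 0.39 for WES1 and 0.69 for GH3.3. It was 0.35 for GH3.1, 0.24 for IAA30 and 0.19 for IAA29. None of the 7 was called in the paired limma fit (adjusted p 0.186 to 0.866), so L-AOPP alone is not a lowered level for them. For the genes higher with IPyA, UPB1 differed from L-AOPP by -0.22 with IPyA and by -1.16 with IAA, and UGT72E2 by -0.11 with IPyA and -0.74 with IAA. UGT85A2 differed by 0.16 with IPyA and -0.49 with IAA, and AT4G25250 by 1.2 with IPyA and -0.25 with IAA. Of these, the IAA values of UPB1 (adjusted p = 0.000925), UGT72E2 (0.00488) and UGT85A2 (0.0298) were called and the IPyA values were not. In the limma fit without pairing the IAA call held for UPB1 (0.0439) but not for UGT72E2 (0.100) or UGT85A2 (0.211). In AT4G25250 neither was called (adjusted p of 0.174 with IPyA and 0.733 with IAA). The paired limma fit called IPyA against L-AOPP for MSRB9 (0.84, adjusted p = 0.00139), AT5G47980 (1.11, 0.00659), AT2G44370 (0.97, 0.00944) and AT5G19110 (1.01, 0.0250). These genes, picked with earlier results known, were also called for IAA against L-AOPP. None of their IPyA calls held without pairing. Of their IAA calls, that of AT2G44370 held in the limma fit without pairing (adjusted p = 0.00136). Those of MSRB9 (0.0681), AT5G19110 (0.161) and AT5G47980 (0.415) did not.

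**Figure D4:**
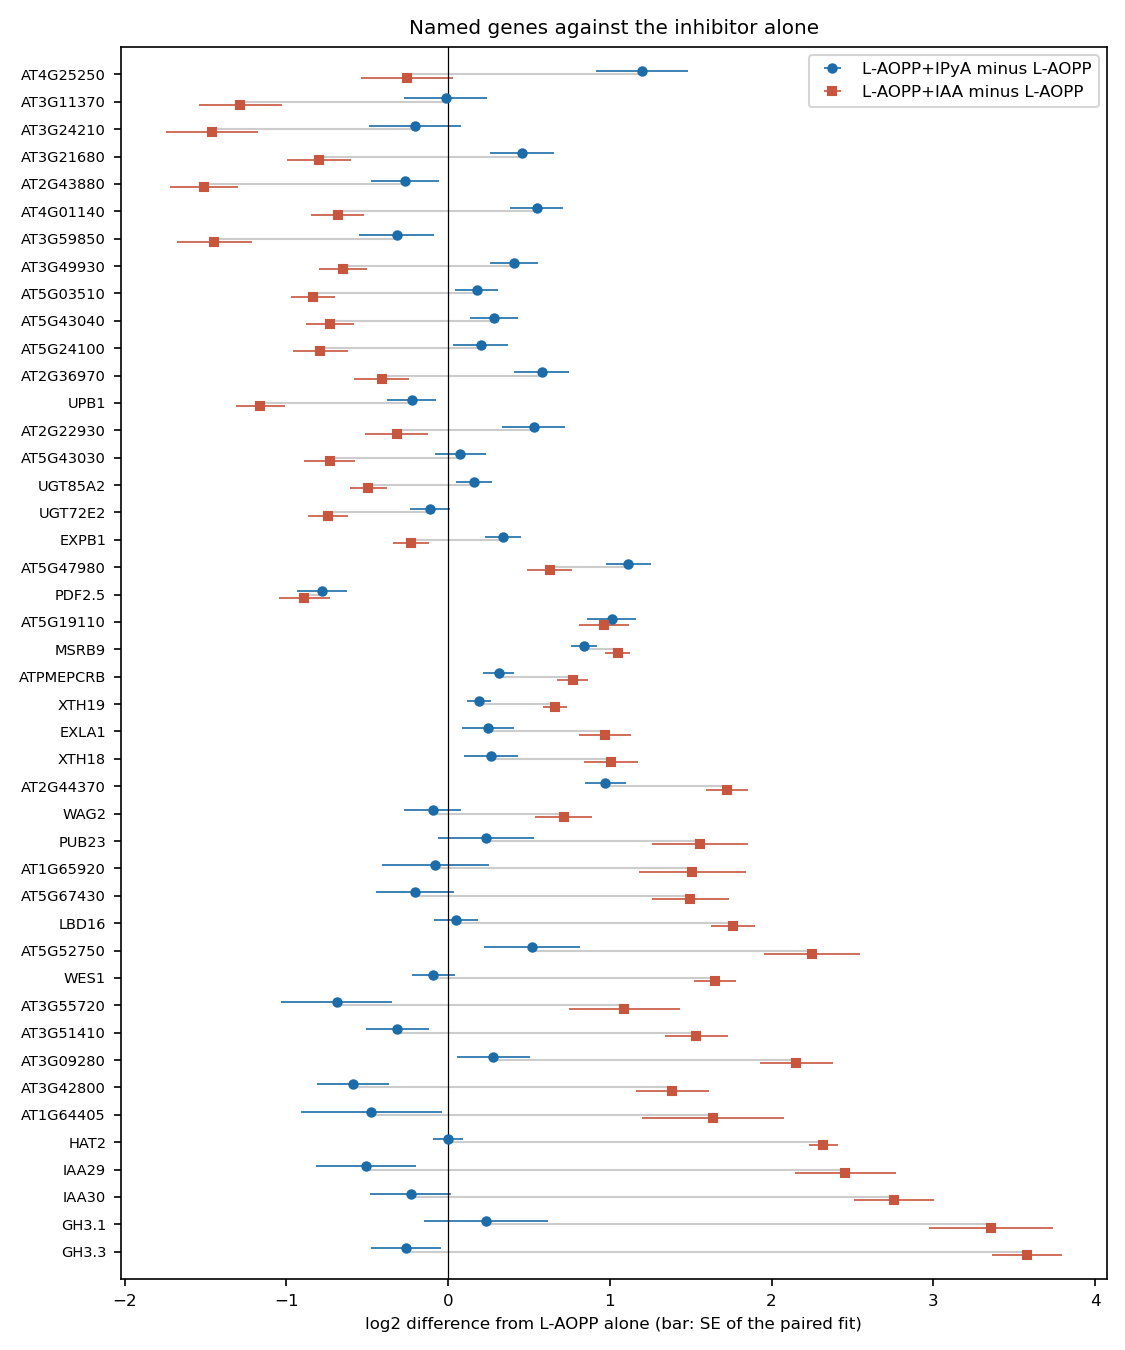
Log2 difference from L-AOPP alone (x axis) of L-AOPP+IPyA (circles) and L-AOPP+IAA (squares) for named genes, from the highest to the lowest L-AOPP+IPyA minus L-AOPP+IAA, with bars for the standard error of the paired fit. In the lowest rows the circles of HAT2 and GH3.3 lie at 0.00 and -0.26 and their squares at 2.32 and 3.58; MSRB9 and AT5G19110 have both symbols to the right of 0.

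Some genes were followed for their levels in both treatments beside L-AOPP alone and Mock. MSRB9 encodes an enzyme that repairs oxidised methionine. It had 3991, 5595 and 4992 with IPyA, against 4468, 6592 and 5823 with IAA. L-AOPP alone gave 2197.5, 2943 and 2998, and Mock gave 4176, 6792 and 4905. Both treatments overlapped each other and Mock and lay above L-AOPP alone, and the difference between them was -0.21 (interval -0.38 to -0.04, adjusted p = 0.311). AT5G19110 had 304, 499 and 484 with IPyA, against 298, 466 and 479.6 with IAA, and 172, 205 and 255 with L-AOPP alone. Mock gave 489, 518 and 432. IPyA and IAA arrays overlapped, with a difference of 0.05 (interval -0.29 to 0.38, adjusted p = 0.979). Replicate 1 was the lowest in both treated groups and with L-AOPP alone.

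AT5G47980 had 333, 381 and 283 with IPyA, against 228, 322 and 177 with IAA, and 165, 148 and 144 with L-AOPP alone. Mock gave 337, 379.5 and 323. The IPyA and IAA groups overlap, each pair was higher with IPyA, and the difference of 0.49 was not called (interval 0.18 to 0.79, adjusted p = 0.133). Leaving out L-AOPP+IAA replicate 2 made it a call (0.66, adjusted p = 0.0396). AT2G44370 had 173, 184.5 and 226 with IPyA, against 271, 326 and 389 with IAA, and 81.2, 97.0 and 121 with L-AOPP alone. These 3 groups were apart from each other, with IPyA in the middle. Mock gave 248, 291 and 253, above all IPyA arrays and overlapping those with IAA. The IPyA minus IAA difference was -0.75 (interval -1.03 to -0.47, adjusted p = 0.00737), a call that ended without L-AOPP+IPyA replicate 2 or L-AOPP+IAA replicate 3 (0.0529 and 0.0583) and without pairing (0.202). PDF2.5, a defensin gene, had 563 ± 82.5 with IPyA, 530.5 ± 132 with IAA, 964 ± 116 with L-AOPP alone and 476 ± 10.7 in Mock. Between IPyA and IAA it had a difference of 0.11 (interval -0.23 to 0.45, adjusted p = 0.918).

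Most other lists held no call between the treatments. None of 6 flavonoid synthesis genes was called, with a median of 0.05, and 0 had an unadjusted p under 0.05. DFR, the dihydroflavonol reductase gene, had 5308 ± 1286 with IPyA and 5527 ± 1780 with IAA. In detoxification, where UGT85A2 was the 1 call, 8 of 18 had an unadjusted p under 0.05, against 10.4% of all tested probe sets. The 8 included UGT73B4 (-0.85, adjusted p = 0.199), GSTU25 (-0.54, adjusted p = 0.206) and GSTU27 (0.29, adjusted p = 0.212). The cytokinin response regulator gene RR16 differed by 0.55 (adjusted p = 0.170). The 6 salicylate and defence genes (median -0.07) and the 4 abscisic acid and cold genes (median 0.07) had 0 called and 0 at an unadjusted p under 0.05. The 3 glucosinolate genes (median 0.15) had 0 called and 1 at an unadjusted p under 0.05.

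Genes encoded in the organelles were followed as well. Of 78 tested plastid and mitochondrial genes, 0 were called by limma between IPyA and IAA, and 9 had an unadjusted p under 0.05, 7 of them higher. That is 11.5% of them, near the 10.4% of all tested probe sets. Their differences ran from -0.39 to 0.46 with a median of 0.08, and 61 of the 78 lay above 0 (78.2%). Of all tested probe sets 54.7% lay above 0, with a median of 0.01. The 78 genes were read on the same arrays and are not independent of each other, so the share above 0 is a description. In all, 177 genes of the lists were tested, and 17 of them were called (9.6%, against 1.94% of all tested probe sets), 4 higher and 13 lower with IPyA. The lists were drawn up with earlier results known, so this share supports nothing. Without pairing 7 were called.

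**Figure D5:**
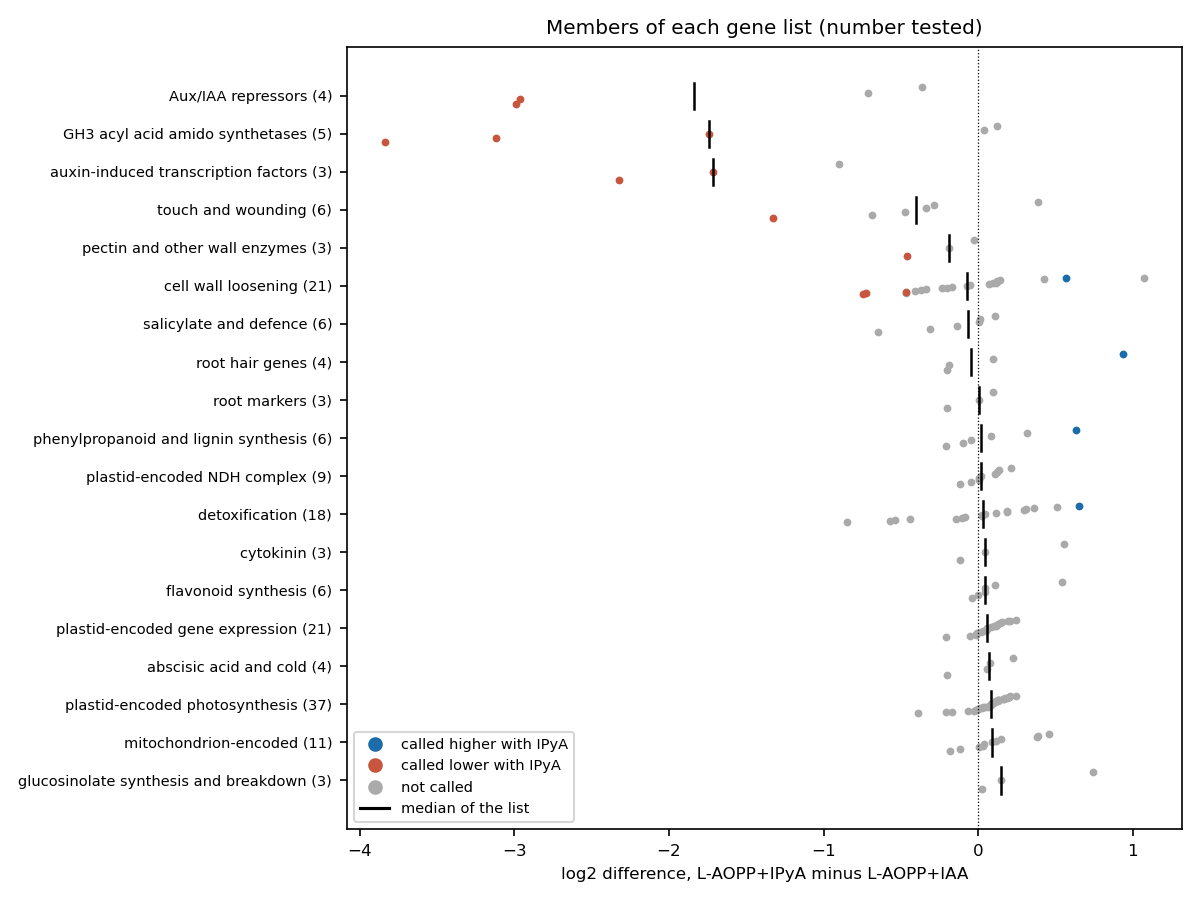
Log2 difference of L-AOPP+IPyA minus L-AOPP+IAA (x axis) for each tested member of the lists with at least 3 tested members, ordered by the list's median (black bar), with the number tested in brackets. Members of the Aux/IAA, GH3 and auxin-induced transcription factor lists reach down to -3.84, and the organelle-encoded genes lie between -0.39 and 0.46.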

How the data were processed

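RNA of 12 whole-plant samples was hybridised to Affymetrix arrays in 1 colour. Per the submitters' processing notes, the deposited intensity values are MAS5 signals. The MAS5 version is not given in the sources used here, and the mean of each array, trimmed by 2% at either end, is 500.0. Depth is not defined for arrays, and the number of arrays limits the precision.

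From these deposited values, log2 of the signal (floor 0.05) entered 1 limma model (version 3.58.1, R 4.3.3) over all 12 arrays, with group and replicate number as terms and an intensity trend, two-sided, with Benjamini-Hochberg adjustment over the 15922 probe sets tested. Left out were 64 controls and 6824 dim probe sets, those not above the 30th percentile of the mean log2 signal (47.4 as a signal). Intervals are 95%. The script was tested on simulated data.

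Replicate numbers come from the titles, which do not say what they stand for. Same-numbered arrays deviated together (18 correlations of 0.501 to 0.685, against -0.582 to 0.123 for 36 with different numbers, across probe sets), so the numbers were taken to pair the arrays. The deviations are from group means, so positive same-number values tend to make the others negative, and the ranges are not independent.

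Of 22810 probe sets, 13513 have 1 gene in the annotation used, 503 several and 8730 are unlisted. The 49 named genes are the 15 highest and 15 lowest called with 1 gene, up to 4 called members of each list, and further genes picked by name. Lists held 1148 symbols, of which 214 genes have a named probe set. The comparison, the lists and the picked genes were chosen with earlier results of these data known. The alternatives changed the pairing, arrays, filter, normalization, low values, variance prior and replicates.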

Additional observations from a re-analysis of the deposited data

How the results depend on the processing

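Without the replicate block the fit called 60 probe sets (6 higher, 54 lower, 90% lower) in place of 309 (79.3% lower), and all 60 were among the 309. The members called in the lists were then 7 in place of 17. For the side comparisons, whose fit without pairing was added after seeing the data, it called 0 in place of 28 for IPyA against L-AOPP and 63 in place of 590 for IAA against L-AOPP. Leaving out 1 array or 1 replicate gave 118 to 222 calls, 13 to 42 higher and 101 to 180 lower. A filter at the 50th percentile left 38 calls higher in place of 64, and no intensity trend left 160 lower in place of 245. Other counts stayed within 1.5 times. The cause of these changes was not tested. Some of these fits also held fewer arrays or probe sets. Of the 40 named genes called, 0 changed direction in any alternative, 25 kept the call under all alternatives that keep the pairing and all arrays, 19 without any single array, 12 also without any replicate, and 14 without pairing. Of genes not called, some changed sign when an array or replicate was dropped. GH3.17 ran from -0.023 (no L-AOPP+IPyA replicate 1, and -0.017 with no L-AOPP+IAA replicate 2) to 0.089, and AT5G19110 from -0.058 (no L-AOPP+IAA replicate 1, and -0.03 with no L-AOPP+IPyA replicate 2) to 0.16. PDF2.5 ran from -0.14 (no L-AOPP+IAA replicate 2, and -0.10 with no replicate 2 of any group) to 0.33, and GH3.9 from -0.027 (no L-AOPP+IPyA replicate 3) to 0.32. Signals near the filter level limit what can be read from dim genes.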

Other observations

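Called genes outside the naming rule that carry a symbol in the annotation used number 15, 12 lower and 3 higher with IPyA than with IAA; they were picked after their values were seen. Lower were UGT76D1, a glycosyltransferase gene, at 54.9 ± 6.73 with IPyA and 157 ± 24.1 with IAA (SD, n = 3 each; log2 difference -1.51, adjusted p = 0.0028), and CLE44, the gene of a peptide that keeps vascular stem cells dividing and undifferentiated, at 104 ± 31.5 with IPyA and 262 ± 14.2 with IAA (-1.39, adjusted p = 0.00236). Both were also called without pairing (adjusted p of 0.00899 and 0.0279), and the other 13 were not. BAT1, which encodes an acyltransferase linked to brassinosteroids, had 221 ± 80.4 with IPyA and 441 ± 139 with IAA (-1.01). The transcription factor gene WRKY6 had 357 ± 33.9 with IPyA and 699.5 ± 208 with IAA, and HMT-1, a homocysteine methyltransferase gene, had 861 ± 281 with IPyA and 1600.3 ± 378 with IAA. CSLC04, which encodes a synthase of the xyloglucan backbone, had 1028 ± 244 with IPyA and 1519.8 ± 243 with IAA, and BRH1, a brassinosteroid-responsive RING-H2 gene, 1657 ± 173 with IPyA and 2282 ± 70.4 with IAA. The others that were lower were TRM28 (-0.92), the ubiquitin ligase gene PUB25 (-0.75), the autophagy gene ATG8G (-0.62), SGP2 (-0.52) and TBL45 (-0.46). Higher were IQD19 (0.61), BRK1 (0.61), whose protein is a subunit of the SCAR/WAVE complex of actin assembly, and the carboxypeptidase-like gene scpl40 (0.48).

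With no filter on dim probe sets, 20 probe sets were called that the filter had removed, 14 lower and 6 higher with IPyA, and 12 of them have 1 gene. Beside LBD29 and IAA34, AT3G28420 had 31.9, 18.6 and 36.5 with IPyA and 139.3, 117 and 114 with IAA (adjusted p = 0.00471), and AT4G37290 had 35.4, 40.2 and 28.1 with IPyA and 157, 214.5 and 158 with IAA (adjusted p = 0.0493). In the other direction AT1G61840 had 60.1, 58.9 and 58.8 with IPyA and 24.5, 13.4 and 3.2 with IAA (adjusted p = 0.0334), and AT1G33055 had 43.2, 40.4 and 53.2 with IPyA and 7.80, 5.90 and 9.30 with IAA (adjusted p = 0.0413). AT1G54640 had 38.2, 11.5 and 25.7 with IPyA and 0.8, 1.2 and 1.8 with IAA (log2 difference 4.22, adjusted p = 0.0234). AT3G25810 had 26.9, 21.3 and 14.3 with IPyA and 0.9, 1.4 and 1.2 with IAA (4.13, adjusted p = 0.0206). These signals lie near or under the filter level of 47.4 in at least 1 of the groups, so the size of each difference is uncertain.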
